A study of Mus musculus with 11 samples.

Results

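The ID factors and the feedback genes of bone morphogenetic protein (BMP) signalling were taken by symbol: Id1, Id2, Id3, Id4, Smad6, Smad7, Smad9, Bambi, Grem1 and Nbl1. All 10 genes had a row in both deposited tables, out of 18712 genes present in both. RNA-seq was done on untreated primary mesenchymal stromal cells, adherent marrow cells that give rise to osteoblasts, adipocytes and chondrocytes and nurse haematopoietic cells. The 11 libraries came from C57/BL6 mice of 3 genotypes: 4 were wild type, 3 lacked ANXA2 (ANXA2 KO) and 4 lacked ANXA5 (ANXA5 KO) by label. ANXA2 and ANXA5 are annexins, proteins that bind membrane phospholipids when calcium is present. The labels do not give the age of the mice, the removed exons, or whether the libraries of a group were separate animals or cultures. The p-values therefore reflect only how far these samples vary, and part of that variation may be technical. Xist, an RNA of female cells, was present in some wild type libraries and nearly absent in others. The same held for the ANXA5 knockout, with values given below. The ANXA2 knockout libraries are named 1, 3 and 4 after their columns, whose numbers differ from those in the sample titles.

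BMP ligands bind paired type I and type II receptors, which phosphorylate SMAD1, SMAD5 and SMAD9, and these enter the nucleus with SMAD4 and switch on target genes. The ID genes are the classical early targets: ID proteins have a helix-loop-helix domain but no DNA-binding region, so they capture E proteins and block bHLH transcription factors, and in stromal cells they are known for holding back differentiation. SMAD6 and SMAD7, the inhibitory SMADs, and BAMBI, a receptor-like protein without a kinase domain, are induced by the pathway and dampen it. Gremlin 1 and NBL1 (also called DAN) are secreted proteins that bind BMP ligands outside the cell.

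The question asked of the data was whether loss of either annexin altered these genes, and whether the 2 knockouts differed from each other. The largest contrast was that of Id3. Its level was 616 ± 131 CPM in ANXA2 knockout libraries (SD, n = 3) and 322 ± 36.3 in ANXA5 knockout libraries (SD, n = 4), with the wild type between them at 432 ± 48.0 (SD, n = 4). CPM are read counts scaled to each library's total and put on 1 joint scale. The ANXA2 knockout exceeded the ANXA5 knockout 1.91-fold, and Id3 passed the test of that difference (edgeR adjusted p = 0.0309). Against the wild type itself, 0 of the 10 genes passed in either knockout (limma-trend with Benjamini-Hochberg adjustment over all tested genes), where 0.112% of all genes passed in the ANXA2 and 0.0308% in the ANXA5 comparison.

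Promoter sequence is shown for those members that were higher in every ANXA2 than in every ANXA5 knockout library and that can be shown, Id2, Id3, Id4 and Smad6, because SMAD complexes read short DNA elements near target genes. The windows are the 250 bases before the annotated start, 5′ to 3′ on the gene's strand, from RefSeq on build GRCm38.p6, which is not the submitters' build. Capitals mark GGCGCC, a GC-rich element bound by SMAD1 and SMAD5 that reads the same on both strands, and CAGAC, the SMAD element, or GTCTG, its reverse. The pair of motifs shares no overlap in these windows. The Id3 window lies at chr4:136143572-136143821 (+), that of Id2 at chr12:25096093-25096342 (-), that of Id4 at chr13:48260866-48261115 (+) and that of Smad6 at chr9:64022060-64022309 (-).
Id3: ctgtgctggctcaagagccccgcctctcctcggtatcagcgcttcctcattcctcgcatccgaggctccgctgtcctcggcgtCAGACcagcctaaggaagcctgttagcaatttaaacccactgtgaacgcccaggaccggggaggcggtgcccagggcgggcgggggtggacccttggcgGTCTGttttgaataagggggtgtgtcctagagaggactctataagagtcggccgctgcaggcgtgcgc
Id2: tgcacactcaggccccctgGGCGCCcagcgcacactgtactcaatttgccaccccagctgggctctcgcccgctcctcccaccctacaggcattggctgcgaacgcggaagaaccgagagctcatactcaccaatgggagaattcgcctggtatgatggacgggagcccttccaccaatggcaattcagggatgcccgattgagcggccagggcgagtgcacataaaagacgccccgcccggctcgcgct
Id4: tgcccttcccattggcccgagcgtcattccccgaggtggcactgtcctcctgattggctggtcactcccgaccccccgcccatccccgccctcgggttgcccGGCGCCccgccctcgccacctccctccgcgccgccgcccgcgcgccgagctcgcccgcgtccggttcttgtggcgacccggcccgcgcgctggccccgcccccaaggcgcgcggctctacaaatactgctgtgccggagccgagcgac
Smad6: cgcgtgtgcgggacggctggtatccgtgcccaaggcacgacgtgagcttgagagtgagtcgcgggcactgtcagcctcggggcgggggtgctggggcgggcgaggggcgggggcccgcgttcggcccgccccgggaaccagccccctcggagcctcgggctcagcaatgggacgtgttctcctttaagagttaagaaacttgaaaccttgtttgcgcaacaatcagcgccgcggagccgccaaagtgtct
The Id3 window held CAGAC or its reverse 2 times and no GGCGCC, the windows of Id2 and Id4 each held 1 GGCGCC, and that of Smad6 held neither. Id1 had no entry in the RefSeq table, and Smad7 and Bambi were left out. Of the other 7 members, 5 held GGCGCC (Id2, Id4, Smad9, Grem1 and Nbl1), against 9.59% of 32851 windows of the same length. That total was not restricted by chromosome. CAGAC or its reverse was in 2 of the 7 (Id3 and Grem1), against 42.2% of all windows. Member windows were 62.8 to 77.6% G and C, and matches were not compared with windows of like composition. A short stretch of bases just after the Id4 start used by RefSeq was not found in a GENCODE transcript of that gene. A match describes the letters only, since binding was not measured.

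Per kb of exon, which allows genes to be compared, Nbl1 was the most abundant member in the wild type at 668 ± 112 CPM per kb (SD, n = 4), and Id3 came next at 241 ± 26.8. Id2 stood at 49.5 ± 3.29 and Id1 at 28.5 ± 1.23 CPM per kb, each apart from its neighbours in every wild type library. Below them came Smad7 (13.0 ± 5.06), Smad6 (11.6 ± 0.800), Bambi (8.19 ± 1.08) and Id4 (7.20 ± 0.917). The wild type libraries of Smad7 overlapped with those of Smad6, Bambi and Id4, and those of Bambi with Id4, so these orders are within the spread, whereas Smad6 lay above Bambi and Id4 in every library. Grem1 (0.854 ± 0.296) and Smad9 (0.232 ± 0.0326) were the lowest members. The order of the group means was the same in both knockouts. Exon lengths came from GENCODE vM21 on GRCm38.

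**Figure D1:**
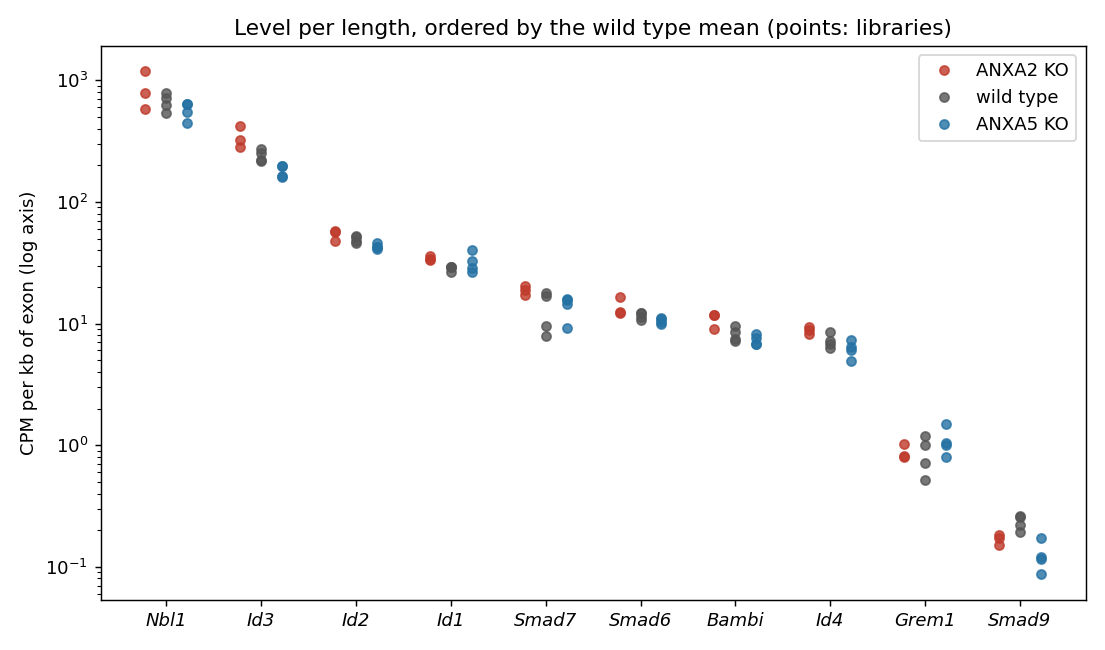
Level of each member in CPM per kb of exon (log axis), ordered by the wild type mean, with 1 point per library and colours for the 3 genotypes. Nbl1 and Id3 lead and Grem1 and Smad9 are lowest in all 3 genotypes, and the points of Smad7, Smad6, Bambi and Id4 lie close together.

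Among the ID factors, Id3 carried most of the message. It made up 73.8 ± 2.29% of the summed ID level per kb in the wild type (SD, n = 4), 77.7 ± 2.4% in the ANXA2 knockout (SD, n = 3) and 68.8 ± 2.69% in the ANXA5 knockout (SD, n = 4). Id2 held 15.2 ± 1.48%, 12.3 ± 1.17% and 16.5 ± 0.947% in the same order, Id1 8.78 ± 0.996%, 7.95 ± 1.19% and 12.3 ± 2.55%, and Id4 2.21 ± 0.212%, 2.02 ± 0.231% and 2.37 ± 0.366%. These shares were not tested.

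Id3, which lies on chromosome 4, was measured at 450.4, 393, 491 and 393 CPM in wild type libraries 1 to 4. The ANXA2 knockout libraries 1, 3 and 4 held 761, 505 and 583 CPM, all above the wild type. ANXA5 knockout libraries 1 to 4 held 354, 354, 289 and 293 CPM, all below the wild type, so the 3 genotypes did not overlap. Within the separately scaled tables the ANXA2 knockout had a log2 fold change of 0.51 (SE 0.165, 95% interval 0.13 to 0.88), with a limma p of 0.0133 and an adjusted p of 0.523. For the ANXA5 knockout it was -0.42 (SE 0.116; -0.68 to -0.16), with a limma p of 0.00455 and an adjusted p of 0.271. In the authors' deposited table the ANXA5 value was -0.42 with an adjusted p of 0.0487, past the threshold of 0.05 that 1.76% of genes passed there. DESeq2 on the recovered reads gave an adjusted p of 0.0378, in a fit that called 1.89% of genes. The authors' deposited table gave 0.52 and 0.213 for the ANXA2 knockout, where 0.593% of genes passed. Both contrasts use the same 4 wild type libraries. As in all bulk RNA, fewer cells expressing a gene and less of its RNA per cell cannot be told apart.

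The direct difference between the knockouts in Id3 was 0.93 on the log2 scale (edgeR quasi-likelihood on recovered reads, adjusted p = 0.0309), rank 24 of 16722 genes. Among all genes, 0.263% passed in this comparison. The call depended on single libraries: it was lost without ANXA2 knockout library 1 (0.76, adjusted p = 0.0904) or 4 (0.97, 0.052), and without ANXA5 knockout library 1 (0.98, 0.0682), 2 (0.98, 0.0606), 3 (0.88, 0.0986) or 4 (0.89, 0.12). When the wild type was left out of the fit, the difference was 0.93 with an edgeR adjusted p of 0.0676.

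Id1, on chromosome 2, is the ID factor most often used as a BMP readout. Like Id3 it was higher in the ANXA2 knockout, but unlike Id3 it was not lower in the ANXA5 knockout. Wild type libraries 1 to 4 held 33.8, 33.9, 30.9 and 33.5 CPM and the ANXA2 knockout libraries 41.7, 39.6 and 38.7, without overlap. In the ANXA5 knockout the values were 33.0, 38.1, 30.6 and 46.7, spread on both sides of the wild type. Log2 fold changes were 0.29 (limma SE 0.0923, interval 0.08 to 0.50, adjusted p = 0.522) for the ANXA2 and 0.15 (SE 0.13, adjusted p = 0.647) for the ANXA5 knockout. Without ANXA5 knockout library 4 the ANXA5 value was 0.03. ANXA2 minus ANXA5 gave 0.11 (edgeR adjusted p = 0.745), with overlapping libraries.

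Id2, on chromosome 12, was measured at 128, 127, 116 and 112 CPM in the wild type. The ANXA2 knockout held 142, 115 and 137 and the ANXA5 knockout 112, 104, 100 and 104 CPM. On the scale of its own table, every ANXA5 knockout library was below every wild type library, by a log2 fold change of -0.20 (limma SE 0.0775, adjusted p = 0.37). The margin was narrow, with 3203 normalised reads in ANXA5 knockout library 1 and 3209.7 in wild type library 4. The ANXA2 knockout overlapped with the wild type, with a log2 fold change of 0.13 (limma SE 0.109, adjusted p = 0.724). Between the knockouts Id2 was separate, at a log2 difference of 0.32 (edgeR adjusted p = 0.204).

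Id4, on chromosome 13, was the rarest ID message, at 26.0, 24.4, 32.6 and 27.9 CPM in the wild type. It was 35.8, 31.5 and 34.1 in the ANXA2 knockout and 23.5, 28.1, 24.9 and 18.9 in the ANXA5 knockout. Both knockouts overlapped with the wild type but not with each other. The log2 fold changes were 0.30 (limma SE 0.125, adjusted p = 0.569) and -0.22 (SE 0.135, adjusted p = 0.529), and the direct difference was 0.50 (edgeR adjusted p = 0.173).

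Of the inhibitory SMADs, Smad6 preferentially blocks BMP receptors. It was measured at 34.1, 39.5, 39.3 and 36.2 CPM in the wild type, 52.7, 40.1 and 38.9 in the ANXA2 knockout, and 34.5, 35.3, 31.5 and 32.5 in the ANXA5 knockout. ANXA2 knockout library 1 stood above all others, and the knockouts did not overlap with each other. The log2 fold changes against the wild type were 0.23 (limma SE 0.131, adjusted p = 0.611) and -0.15 (SE 0.085, adjusted p = 0.497), and the direct difference was 0.39 (edgeR adjusted p = 0.188). Smad6 lies on chromosome 9, 5.5 Mb from Anxa2 (GRCm38), and the part of that position in its value was not tested.

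Smad7, which blocks both BMP and TGF-beta receptors, split the wild type: libraries 1 and 2 held 35.7 and 43.1 CPM, and libraries 3 and 4 held 77.1 and 80.0. The ANXA2 knockout libraries held 84.5, 78.1 and 91.4, and the ANXA5 knockout libraries 65.5, 72.3, 41.9 and 69.9 CPM. The 3 low libraries, wild type 1 and 2 and ANXA5 knockout 3, were those with the most Xist, the RNA that coats the inactive X chromosome of female cells. Xist was at 70.1, 76.3 and 58.8 CPM in them and at 0.0368 to 27.3 in the other 8. Ski, which encodes a SMAD-binding repressor, was low in the same libraries: 1854, 3233 and 3741 normalised reads in the ANXA5 table, against 10857 to 16412 in its other 5 libraries. This pattern was noticed after the values were seen, and its source was not tested. The log2 fold change of Smad7 was 0.62 (limma SE 0.28, interval -0.02 to 1.25, adjusted p = 0.573) in the ANXA2 and 0.14 (SE 0.282, adjusted p = 0.853) in the ANXA5 knockout. With log2 (Xist + 1) as a covariate, the ANXA2 value was 0.85 with a limma adjusted p of 0.0209. Smad7 so passed in that fit, which called 284 genes (1.76%) where the fit without the covariate called 18. Xist in the ANXA2 knockout was at 203 to 652 normalised reads. That lay between wild type libraries 3 and 4 (1.16 and 0.959) and 1 and 2 (1829 and 1997). The adjusted value therefore rests on the log scale, and Xist without the logarithm was not tried. In the ANXA5 knockout the same covariate gave 0.28 (limma adjusted p = 0.408). Between the knockouts the difference was 0.44 (edgeR adjusted p = 0.476), and the libraries did not overlap.

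Smad9, the BMP receptor SMAD encoded among these genes, was scarce and lowest in the knockouts. The wild type held 1.18, 1.36, 1.41 and 1.03 CPM, the ANXA2 knockout 0.817, 0.974 and 0.931, and the ANXA5 knockout 0.920, 0.651, 0.463 and 0.617. Every knockout library was below every wild type library. The ANXA2 knockout differed from the wild type by -0.42 in log2 (limma SE 0.235, interval -0.96 to 0.11, adjusted p = 0.608). In the ANXA5 knockout it was -0.90 (limma SE 0.252, interval -1.47 to -0.34), with a p of 0.00509 and an adjusted p of 0.273. The authors' deposited table gave -0.90 with an adjusted p of 0.113. Smad9 lies on chromosome 3, 18.3 Mb from Anxa5 (GRCm38). The direct difference of the knockouts was 0.45 with overlapping libraries (edgeR adjusted p = 0.475).

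Bambi, the decoy receptor, was measured at 37.8, 36.6, 48.4 and 43.4 CPM in the wild type. The ANXA2 knockout held 59.1, 45.4 and 59.7, and the ANXA5 knockout 38.5, 41.6, 34.6 and 34.3. Each knockout overlapped with the wild type, whereas the lowest ANXA2 library exceeded the highest ANXA5 library. The log2 fold changes were 0.40 (limma SE 0.145, interval 0.08 to 0.73, adjusted p = 0.538) and -0.15 (SE 0.113, adjusted p = 0.599). The direct difference was 0.55, or 1.47-fold (edgeR adjusted p = 0.131).

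The secreted antagonists overlapped between all genotypes. Grem1, on chromosome 2, was rare: 2.15, 4.91, 2.95 and 4.15 CPM in the wild type, 3.35, 3.29 and 4.27 in the ANXA2 knockout and 3.34, 6.15, 4.30 and 4.18 in the ANXA5 knockout. Its log2 fold changes were 0.11 (limma SE 0.286, adjusted p = 0.927) and 0.37 (SE 0.273, adjusted p = 0.592). The sign of the former turned to -0.11 without wild type library 1 and to -0.01 without ANXA2 knockout library 4. Nbl1, on chromosome 4 like Id3, was abundant and variable. It was measured at 1615, 1460.3, 1266 and 1091 CPM in the wild type, 2421, 1599.6 and 1181 in the ANXA2 knockout, and 1290.4, 912, 1115 and 1292 in the ANXA5 knockout. ANXA2 knockout library 1, the library with the most Id3 and Smad6, also had the most Nbl1. The log2 fold changes of Nbl1 were 0.32 (limma SE 0.256, adjusted p = 0.707) and -0.23 (SE 0.165, adjusted p = 0.58), and the direct difference was 0.59 (edgeR adjusted p = 0.294). Without ANXA2 knockout library 1 these Nbl1 values for the ANXA2 knockout were 0.04 against the wild type and 0.28 against the ANXA5 knockout.

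**Figure D2:**
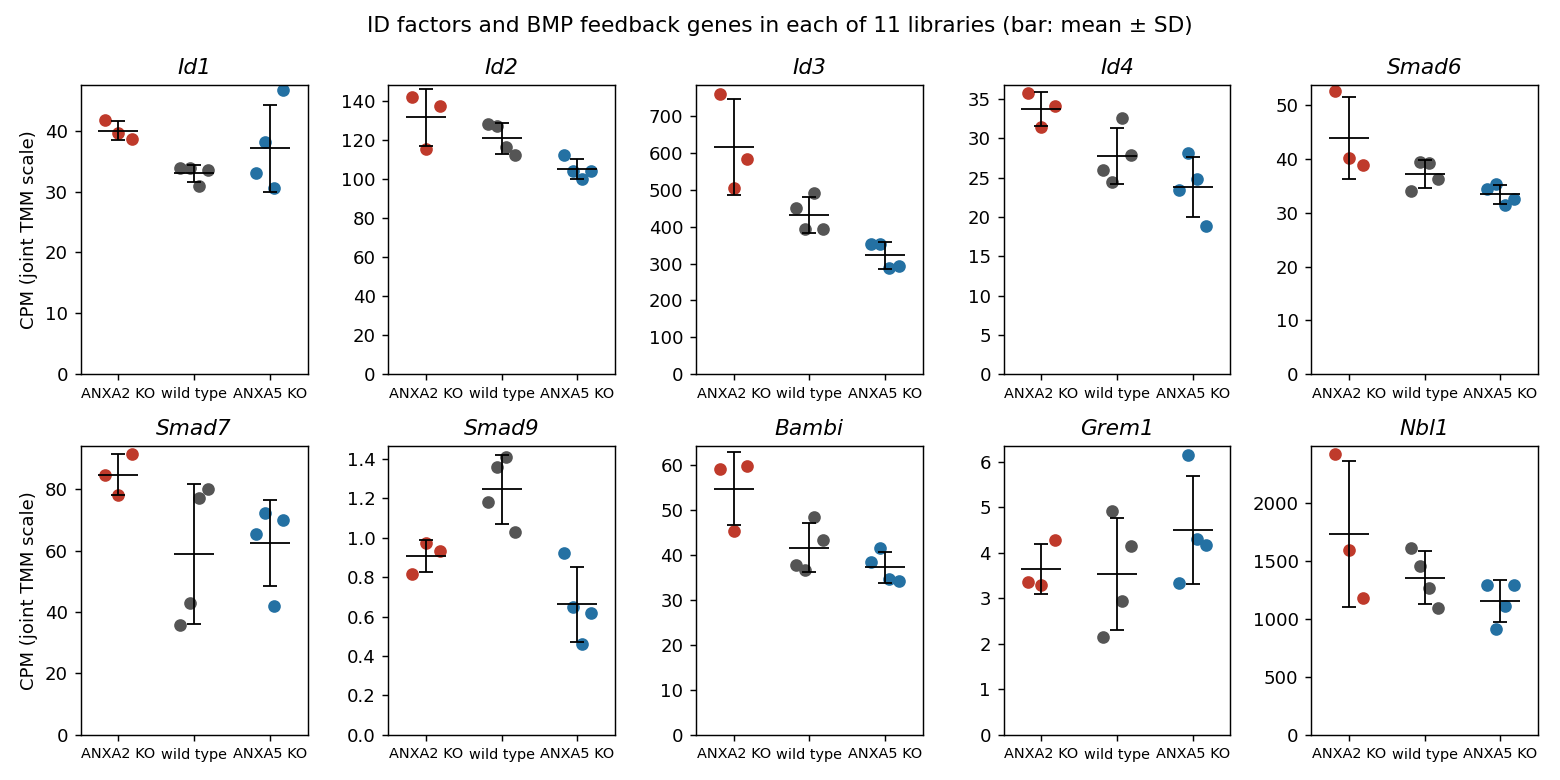
CPM on the joint scale for each member, 1 point per library, with the group mean and SD as a bar and axes from 0. The 3 genotypes are separate for Id3, wild type libraries fall into a low and a high pair for Smad7, and both knockouts lie below the wild type for Smad9.

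Counted over the members, 4 of 10 had an unadjusted limma p under 0.05 in the ANXA2 comparison, all higher (Id1, Id3, Id4 and Bambi), where 4.65% of all tested genes were higher at that level. Groups did not overlap for 2 members that were higher (Id1 and Id3; 4.56% of all genes) and 1 that was lower (Smad9; 4.63%). The fold change was above 0 for 9 of 10 (54.1% of all genes), with a median of 0.29 on the log2 scale against 0.02 over all tested genes. In the ANXA5 comparison, 3 of 10 had an unadjusted p under 0.05, all lower (Id2, Id3 and Smad9), where 5.45% of all genes were lower at that level. The same 3 members did not overlap with the wild type, Id2 by a narrow margin, and 3.36% of all genes were lower without overlap. Fold changes were above 0 for 3 of 10 members (52% of all genes), and the ANXA5 median was -0.18 against 0.01 over all genes. The count of 4 in the ANXA2 comparison was 2 without ANXA2 knockout library 1 or wild type library 2.

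**Figure D3:**
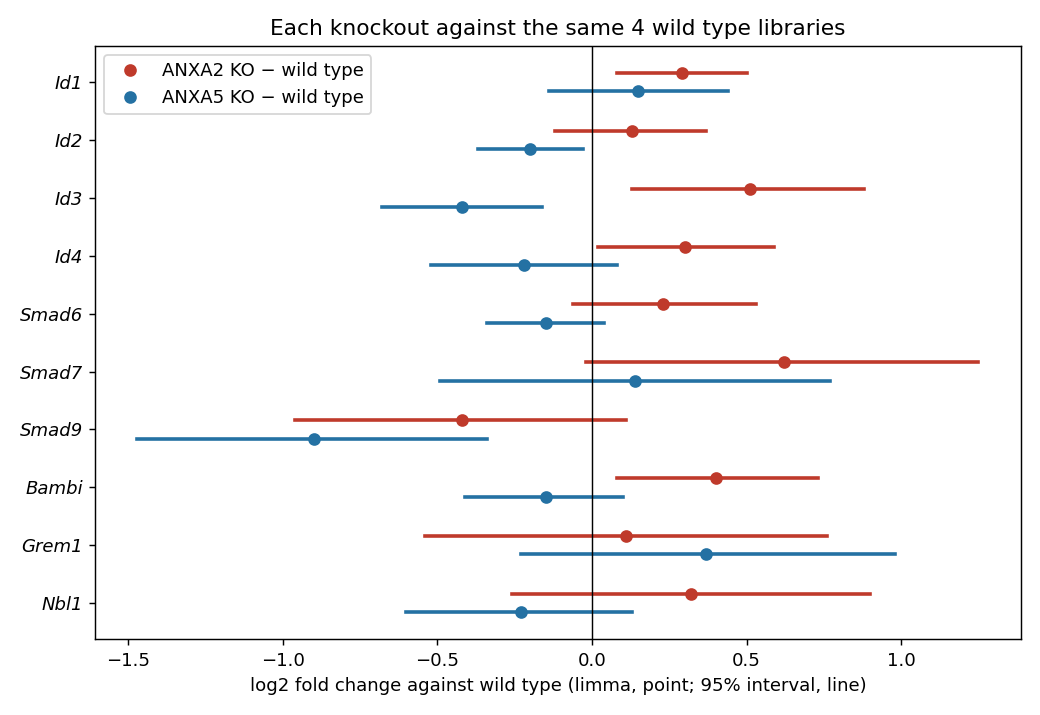
Log2 fold change of each member in the ANXA2 and ANXA5 knockout against the same 4 wild type libraries, with limma's 95% interval as a line. The intervals of Id1, Id3, Id4 and Bambi lie above 0 in the ANXA2 knockout, and those of Id2, Id3 and Smad9 lie below 0 in the ANXA5 knockout, before adjustment.

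Between the knockouts, 6 of 10 members were higher in every ANXA2 than in every ANXA5 library: Id2, Id3, Id4, Smad6, Smad7 and Bambi. Of all genes tested, 6.05% were higher and 6.62% lower without overlap. An unadjusted edgeR p under 0.05 was found for 6 members, all higher in the ANXA2 knockout (Id2, Id3, Id4, Smad6, Bambi and Nbl1), against 7.36% of all genes. The difference was above 0 for 9 of 10 members (49.3% of all genes), and the median member difference was 0.44 on the log2 scale and that of all genes 0. Apart from Id3, 0 members passed after adjustment with edgeR. DESeq2 on the same reads called 394 genes, 2.4% of those it tested, against 44 with edgeR, and among the 394 were Id2, Id4 and Bambi (adjusted p = 0.0401, 0.0368 and 0.0119) besides Id3.

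Across the 11 libraries, 5 of the 45 pairs of members passed with both Pearson's r and Spearman's rho, and 4 of these involve Id3. The permutations moved libraries across genotypes, so these p-values also carry the differences between the groups. All 5 pairs join members that did not overlap between the knockouts. On the joint scale, Pearson's r of log2 values was 0.903 for Id4 and Bambi (permutation p = 7e-05, adjusted over 45 pairs 0.00315), with Spearman's rho at 0.918 (permutation p = 2e-04, adjusted 0.00585). For Id3 and Bambi r was 0.899 (permutation p = 0.00015, adjusted 0.00337) and rho 0.827 (p = 0.00265, adjusted 0.0298). For Id3 and Smad6 r was 0.891 (permutation p = 0.00032, adjusted 0.0048) and rho 0.818 (p = 0.00352, adjusted 0.0317). Id3 ranked the libraries much as the decoy receptor and an inhibitory SMAD did. For Id2 and Id3 r was 0.871 (permutation p = 0.00051, adjusted 0.00574) and rho 0.918 (p = 0.00026, adjusted 0.00585). For Id3 and Id4 r was 0.863 (permutation p = 0.00076, adjusted 0.00684) and rho 0.791 (p = 0.00527, adjusted 0.0395).

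Each pair was also read within the genotypes, for which no p was computed. After removal of the group means, r was 0.76 for Id4 and Bambi, 0.714 for Id3 and Bambi, 0.712 for Id3 and Smad6, 0.60 for Id2 and Id3 and 0.578 for Id3 and Id4. Without the 2 libraries farthest from the median of the gene named first, r was 0.914, 0.787, 0.816, 0.713 and 0.782 in the same order. Pearson's r also passed for Smad6 with Bambi (0.78, permutation p = 0.00233, adjusted 0.0175) and with Id2 (0.747, p = 0.00429, adjusted 0.0276), where rho did not (0.709, p = 0.0182, adjusted 0.103, and 0.691, p = 0.0233, adjusted 0.117). Without the 2 farthest libraries these r were 0.622 and 0.575, and within genotypes 0.42 and 0.377. Smad7 with Bambi passed by rho alone (0.845, permutation p = 0.00162, adjusted 0.0243; r = 0.712, p = 0.0156, adjusted 0.0739). Id1 stood apart from Id3, with r = 0.208 (permutation p = 0.538, adjusted 0.692), rho = 0.345 (p = 0.299, adjusted 0.469) and r = 0.504 without the 2 farthest libraries. Within genotypes that pair gave r = -0.0588.

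**Figure D4:**
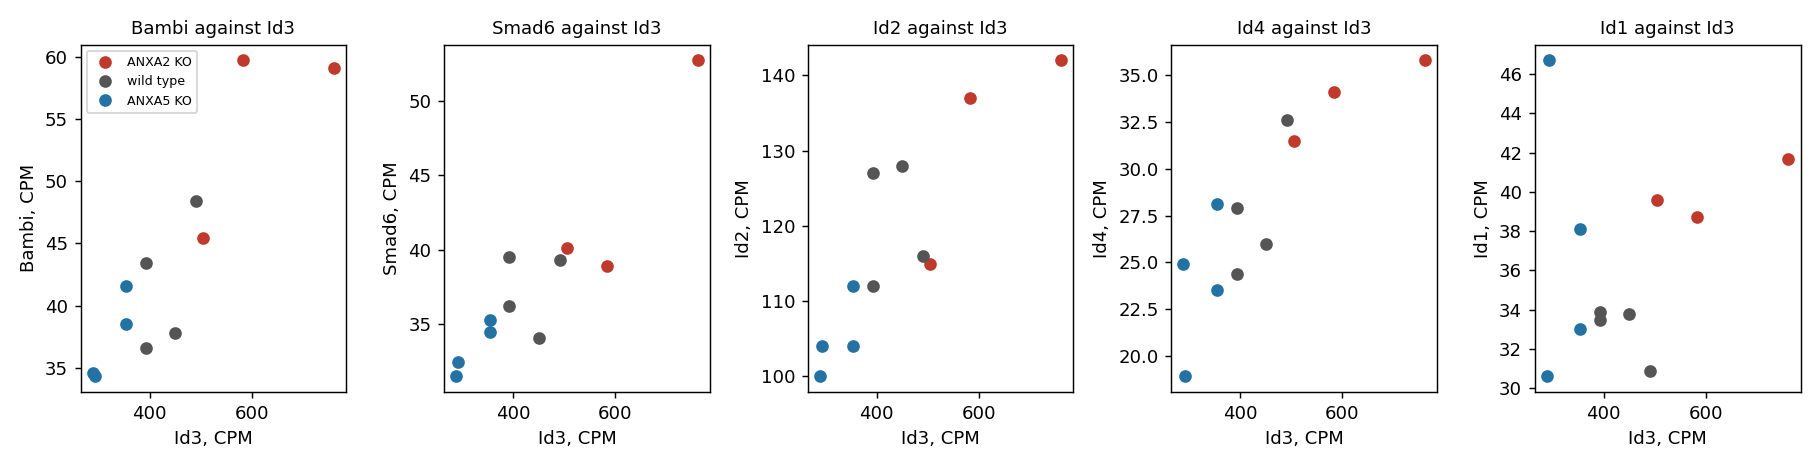
CPM of Bambi, Smad6, Id2, Id4 and Id1 against those of Id3 in the 11 libraries, coloured by genotype, with axes that do not start at 0. Bambi, Smad6, Id2 and Id4 are higher where Id3 is higher, and Id1 shows no such order, with its highest value in an ANXA5 knockout library that is low in Id3.

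The genes most like Id3 over the 11 libraries, out of 12944 compared, were Icam1 (r = 0.978, rho = 0.991), Rrad (r = 0.969, rho = 0.936) and Spats2 (r = 0.963, rho = 0.945). Within genotypes their r with Id3 was 0.904, 0.934 and 0.86. Icam1 encodes an adhesion molecule and Rrad a small GTPase. The genes most like Id1 were others: Desi1 (r = 0.915, rho = 0.836), 1700017B05Rik (r = 0.899, rho = 0.818) and Rhov (r = 0.892, rho = 0.9). These values describe the highest of many correlations and have no p.

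The rest of the pathway was read from hand-made lists, and 0 genes of any of the 7 lists passed in any of the 3 comparisons (limma or edgeR, adjusted). At an unadjusted p under 0.05 there were 11 higher and 3 lower of 114 genes in the ANXA2 comparison, where 4.65% and 4.04% of all genes were. In the ANXA5 comparison 8 were higher and 15 lower of 115 genes, where 6.48% and 5.45% of all genes were. Between the knockouts 27 were higher and 4 lower in the ANXA2 knockout of 116 genes, where 7.36% and 6.55% of all genes were. Upstream, 13 of 17 tested genes of the ligand list were below 0 in the ANXA5 knockout (median -0.25) and 11 of 17 above 0 in the ANXA2 knockout (median 0.10). That list includes Bmp1, which encodes a protease and not a ligand (-0.23 and 0.15). Bmp2, an osteogenic ligand, was at 2689 ± 1063 normalised reads in the ANXA2 knockout (SD, n = 3) against 1921 ± 418 in the wild type (SD, n = 4), with a log2 fold change of 0.44 (limma adjusted p = 0.612). In the ANXA5 table it was at 1547 ± 337 against 2109 ± 466 (SD, n = 4 each), a value of -0.45 (limma adjusted p = 0.382). Bmp4 was at 1001 ± 43.6 in the ANXA5 knockout against 1412 ± 288 (-0.47, limma adjusted p = 0.279), and Inhbb, an activin and inhibin subunit, at 386 ± 61.1 against 614 ± 55.0 (-0.68, limma adjusted p = 0.217), both without overlap. Bmp3 was at 85.3 ± 8.99 in the ANXA5 knockout against 153 ± 73.3 (-0.72, limma adjusted p = 0.379), with overlap. Between the knockouts, ANXA2 minus ANXA5 was above 0 for 15 of 17 genes of this list (49.3% of all genes), with a median log2 difference of 0.37. Of these 17, 3 were higher without overlap (6.05% of all genes). An unadjusted edgeR p under 0.05 was found for 5, all higher (7.36% of all genes). Bmp1, at 0.37, was the median gene and 1 of these 5. The difference was also above 0 for 16 of 17 genes induced by TGF-beta and SMAD3, 12 of 14 antagonists and 12 of 15 receptors. For SMADs and modifiers it was 13 of 19, for other BMP-induced genes 10 of 17, and for E proteins and partners 8 of 17. At an unadjusted edgeR p under 0.05, 6, 4, 3, 5, 2 and 2 of them were higher, in the same order. Lower at that level were 2 other BMP-induced genes, 2 E proteins or partners and 0 in the other lists.

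The receptors had medians of 0.14 in the ANXA2 and -0.05 in the ANXA5 comparison over 15 tested genes. Bmpr1a, a type I receptor for BMP2 and BMP4, was at 2261 ± 196 normalised reads in the ANXA5 knockout against 2774 ± 301 in the wild type (SD, n = 4 each; -0.29, limma adjusted p = 0.336). Acvr2a, a type II receptor shared by activins and BMPs, was at 1368 ± 503 against 2024 ± 452 in the same table (-0.60, limma adjusted p = 0.364), with overlap. The type II receptor Bmpr2 had log2 fold changes of -0.41 (limma adjusted p = 0.571) in the ANXA2 and -0.28 (0.438) in the ANXA5 knockout. SMADs and their modifiers had medians of 0.17 and 0.00 over 19 genes. Ppm1a, a phosphatase of SMADs, was at 2338 ± 142 in the ANXA2 knockout against 1848 ± 202 (0.34, limma adjusted p = 0.523), without overlap. Zfyve9, which anchors receptor SMADs at endosomes, was at 289 ± 42.1 against 374 ± 23.2 in that table (-0.38, limma adjusted p = 0.538), and the ubiquitin ligase Nedd4l at 889 ± 80.2 against 717 ± 97.2 (0.32, limma adjusted p = 0.571), both without overlap.

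Noggin, the classical secreted BMP antagonist, showed the smallest p among the pathway genes against the ANXA2 knockout's wild type controls. Nog was at 254, 392 and 413 normalised reads in ANXA2 knockout libraries 1, 3 and 4 and at 46.6, 109, 118 and 160.2 in the wild type, without overlap. Its log2 fold change was 1.79 (limma SE 0.384, adjusted p = 0.309), or a 3.26-fold ratio of means. In the ANXA5 knockout Nog overlapped with the wild type (0.47, limma adjusted p = 0.578), and the knockouts differed by 1.33 on the log2 scale (edgeR adjusted p = 0.131). The 14 tested antagonists had medians of 0.08 and -0.11.

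Among other BMP-induced genes, 11 of 16 were above 0 in the ANXA2 comparison (54.1% of all genes), with a median of 0.20. In the ANXA5 comparison 9 of 16 were above 0 (52% of all genes), with a median of 0.12. At an unadjusted limma p under 0.05, 4 were higher (6.48% of all genes) and 1 lower (5.45%) in the ANXA5 comparison. The ANXA2 comparison had 0 at that level. The lower gene was Msx1, and Alpl was among the higher ones. Msx1, a homeobox target of BMPs, was at 1791 ± 195 in the ANXA5 knockout against 2460.1 ± 269.9 in the wild type (SD, n = 4 each; -0.46, limma adjusted p = 0.23), without overlap. Alpl, the bone alkaline phosphatase, was at 1365 ± 232 against 889 ± 263 in the same table (0.65, limma adjusted p = 0.305), with overlap. Genes induced by TGF-beta and SMAD3 had medians of 0.32 and -0.07 over 17 genes. In the ANXA2 comparison 14 of the 17 were above 0 (54.1% of all genes). At an unadjusted limma p under 0.05, 4 were higher there (4.65% of all genes) and 1 lower (4.04%). In the ANXA5 comparison 8 of the 17 were above 0 (52%), with 1 higher (6.48%) and 3 lower (5.45%) at that level. The 1 lower gene in the ANXA2 comparison was Snai2, a repressor of epithelial genes. It was at 455 ± 64.0 in the ANXA2 knockout against 728 ± 157 (-0.66, limma adjusted p = 0.476). Snai2 in the ANXA5 knockout was at 499.9 ± 94.4 against 799 ± 169.7 (-0.67, limma adjusted p = 0.231), and neither knockout overlapped with the wild type.

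E proteins and other bHLH or partner factors, the class that ID proteins bind or act on, had medians of 0.01 over 16 genes in the ANXA2 and 0.02 over 17 in the ANXA5 comparison. Tcf15, a bHLH factor, was at 126 ± 34.3 normalised reads in the ANXA5 knockout against 56.4 ± 12.2 in the wild type (SD, n = 4 each; 1.14, limma adjusted p = 0.217), without overlap. Twist1, a bHLH factor of mesenchyme, was at 1323 ± 156 against 1687 ± 190.0 in the same table (-0.35, limma adjusted p = 0.318).

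Libraries held 23.3 to 35.7 M reads over the listed genes. Xist was at 70.1, 76.3, 0.0441 and 0.0368 CPM in wild type libraries 1 to 4. It was at 27.3, 0.0723, 58.8 and 18.1 CPM in ANXA5 knockout libraries 1 to 4, and at 24.7, 8.53 and 7.72 in the ANXA2 knockout. Libraries with and nearly without this RNA were thus mixed within the wild type and the ANXA5 knockout. The targeted genes matched the labels: Anxa2 had a log2 fold change of -1.82 in its knockout (limma SE 0.15, adjusted p = 0.00191), a ratio of means of 0.286, and Anxa5 one of -3.43 in its own (SE 0.0796, adjusted p = 1.91e-08). All 14 stromal markers were detected in every library, from Kitl (16.5 to 31.1 CPM) and Thy1 (17.7 to 29.2) to Pdgfra (689 to 964) and Col1a1 (4279 to 17671). Neutrophil (10595 to 25386 CPM summed) and macrophage markers (2997 to 5935 summed) were also present, and Ngp, a neutrophil granule gene, was at 3631 to 6765 CPM, above Pdgfra in every library. Endothelial cells are another known source of ID transcripts. The summed endothelial markers came to 181 to 289 CPM in the wild type, 211 to 283 in the ANXA2 and 267 to 434 in the ANXA5 knockout. In the ANXA5 comparison 14 of 15 endothelial markers were above 0 (median 1.28) and 10 were higher without overlap (3.01% of all genes), with 11 higher at an unadjusted limma p under 0.05 (6.48% of all genes) and 0 past the adjusted threshold. Medians of the other marker lists in that comparison were 0.90 for adipocytes (6 of 6 above 0), 0.64 for osteoblasts (8 of 9), 0.49 for erythroid cells (8 of 9), 0.46 for smooth muscle (8 of 10), 0.41 for neutrophils (10 of 10), 0.38 for macrophages (13 of 13), 0.06 for B cells (8 of 10) and 0.05 for stromal cells (7 of 14). In the ANXA2 comparison they were 0.42 for adipocytes (5 of 6), 0.31 for osteoblasts (7 of 9), 0.27 for endothelial cells (13 of 15), 0.23 for neutrophils (10 of 10), 0.14 for stromal cells (12 of 14), 0.08 for smooth muscle (8 of 10), 0.06 for erythroid cells (5 of 9), 0.04 for B cells (5 of 10) and 0.03 for macrophages (7 of 13). Endothelial markers had a median of -0.98 for ANXA2 minus ANXA5, with 11 of 15 lower without overlap (6.62% of all genes). The listed markers Sost (osteoblasts), Cidec and Plin1 (adipocytes) had no row in either table and could not be read. No other listed marker was called in these comparisons, and none of those was at 0 in all libraries. The part of the markers in the ID and feedback values was not tested.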

How the data were processed

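Total RNA libraries of mouse bone marrow stromal cells were analysed from 2 deposited tables, each holding 1 knockout with the same 4 wild type libraries. Trim Galore, STAR, HTSeq, DESeq2 and build GRCm39 are named in the submitters' processing notes. Tool versions and strand handling were not given in the sources used here. The signal the authors deposited is the read count divided by a size factor per library (0.8587 to 1.206 and 0.7775 to 1.221), and multiplying it back gave whole reads for 100% of values within 0.001. Deposited log2 fold changes, p-values and adjusted p-values are the authors' DESeq2 output per the file headers, and the deposited score, the Wald statistic per the file headers, was not used. Genes with 0 reads in a knockout library are not in the tables, and 0 sample columns were left out.

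Each knockout was tested against the wild type within its table with limma-trend on log2 (value + 1), over genes reaching 10 in a number of libraries equal to the smaller group (16123 and 16224 genes). Fold changes are on that scale, which understates low genes. The knockouts were compared with edgeR's quasi-likelihood test and TMM scaling on recovered reads of all 11 libraries (16722 genes), and levels in CPM use that scale. P-values are two-sided with Benjamini-Hochberg adjustment over all tested genes at 0.05. Correlations used 100000 resamples. Scripts were tested on simulated data. The members, lists and tests were chosen with earlier results of these data known. Named genes are all members, the leading genes of each pathway list, from the 4 of smallest limma p over both comparisons, and the 3 most like Id1 and Id3 with a mean of at least 50 reads. Alternatives were TMM, edgeR, DESeq2, limma-voom, pseudocounts of 0.5 and 5, no filter, a minimum of 50, an Xist covariate, a replicate block and leaving out each library. R 4.3.3, limma 3.58.1, edgeR 4.0.16 and DESeq2 1.42.0 were used.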

Additional observations from a re-analysis of the deposited data

Results flagged for a closer look

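The difference between the knockouts in Id3, 0.93 on the log2 scale with an edgeR adjusted p of 0.0309, was picked out because the effects of both knockouts against the same wild type differed in a direct test. Id3 was higher in 3 of 3 ANXA2 than in all 4 ANXA5 knockout libraries.

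Id1 in wild type library 3, at 30.9 CPM, lay far from the other wild type libraries, which held 33.5 to 33.9. The gap was 0.867 of the group's range, above the 95% limit of Dixon's test for 4 samples. This was 1 of 20 groups of 4 libraries checked, and chance gives about 1 in 20.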

How the results depend on the processing

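Of 498 values of single members under alternatives, 483 kept their direction and side of the threshold, 7 lost a call, 5 gained one and 3 changed sign. The sign changes were Grem1 in the ANXA2 comparison, with a range of -0.11 (without wild type library 1) to 0.28 over left-out libraries and -0.01 without ANXA2 knockout library 4, and Smad7 in the ANXA5 comparison, with -0.08 (without wild type library 1) to 0.32. For the ANXA2 comparison limma called 18 genes and 0 members, DESeq2 104 genes and 0 members, and the Xist covariate 284 genes and 1 member, Smad7. Leaving out single libraries gave 8 genes (without ANXA2 knockout library 3) to 16, and 11 and 10 without wild type libraries 2 and 4. For the ANXA5 comparison limma called 5 genes and 0 members and DESeq2 282 genes and 1 member, Id3 (-0.42, adjusted p = 0.0378). Left-out libraries gave 4 to 32 genes, with 32 without wild type library 4 and 8 without ANXA5 knockout library 3. In the comparison of the knockouts edgeR called 44 genes and 1 member, DESeq2 394 genes and 4 members, and the fit without the wild type 0 members. Left-out libraries gave 19 to 56 genes and 0 to 1 members, with 19 without ANXA2 knockout library 1 or ANXA5 knockout library 1. The Id3 adjusted p ranged from 0.0215 to 0.12 over left-out libraries, and the 5 of 11 that kept the call were the 4 wild type libraries and ANXA2 knockout library 3. The causes were not tested.

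Same-numbered ANXA5 knockout and wild type libraries had correlations of -0.252 to 0.067, and 0 of 4 ANXA5 libraries correlated best with their own number. These values gave no sign of pairing by number. They cannot exclude that same-numbered libraries were prepared together, since differences not shared by them can hide it. With a replicate block limma called 8 genes and 0 members. For the ANXA2 knockout alone, no paired analysis was possible because the column numbers of the ANXA2 knockout are not those of its titles. Depth limits Smad9 and Grem1 most, the members with the fewest reads.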
